A study of Mus musculus with 2 samples.

Results

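The clustered C2H2 zinc finger genes of the mouse were examined for binding of CTCF, the zinc finger protein that anchors chromatin loops, in newborn lung. Members were the protein-coding genes of the GENCODE M21 annotation named Zfp and a number whose gene body lay within 50000 bp of another such gene; Zfp143 was left out by the rule. This gave 182 of 364 Zfp genes, among 21646 protein-coding gene symbols in all. The rule used names and positions only, and no binding value. Chromatin immunoprecipitation with a CTCF antibody followed by sequencing (ChIP-seq) was done on whole lung of B6NCrl mice at postnatal day 0, with no treatment and no genetic change named in the labels. There was 1 group of 2 replicates. Both cite the same biosample and the same donor record, so their spread may reflect technique alone, and no comparison between conditions was possible. Peak lists hold no expression values, so the tissue label could not be checked against lung markers, and in whole tissue a site bound in few cells cannot be told apart from one bound weakly in many.

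Most genes of this family encode transcription factors with a tandem array of C2H2 zinc fingers, each finger reading a few bases of DNA. In many of them a KRAB domain recruits TRIM28 and, through it, the histone methyltransferase SETDB1, and their best known targets are transposable elements. The family grew by tandem duplication, so related genes stand side by side, and the finger array is usually encoded by the last exon alone.

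The 182 members formed 53 clusters on 14 chromosomes when genes within 50000 bp were chained. Chromosome 7 held 62 members, chromosome 17 held 31 and chromosome 13 held 21. The largest cluster had 15 members, and 25 clusters were pairs. At the edge of the rule, Zfp870 lay 48957 bp from its nearest neighbour and was a member, whereas Zfp974, at 50953 bp, was not. The C2H2 pattern was found in the translated coding sequence of 180 members, with a median of 12 fingers and at most 27. Of 2080 fingers, 2003 (96.3%) were encoded by the last exon, and 174 members had all of theirs there. The last exon held a median of 86.7% of the coding sequence in members, against 15.7% over all protein-coding genes.

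A stretch of sequence shared by neighbouring genes of chromosome 17 is shown first because most of the strong sites of that region lie in it. The 42 bases are read in the direction of the CTCF core, the central 12-base part of the CTCF motif, which is in capitals. All 9 lie on the minus strand of GRCm38 (mm10), and the annotation puts 5 of them upstream of a member's transcription start site (TSS), 1 in an intron and 3 between genes. The members of this region are on the plus strand, so each of these cores reads opposite to their transcription.
Zfp677 upstream copy, chr17:21383466-21383507: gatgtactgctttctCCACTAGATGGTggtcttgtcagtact
Zfp54 upstream copy, chr17:21422761-21422802: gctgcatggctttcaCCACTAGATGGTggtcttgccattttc
Zfp51 upstream copy, chr17:21449826-21449867: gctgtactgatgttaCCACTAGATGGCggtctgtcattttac
Copy between Zfp53 and Zfp52, chr17:21515877-21515918: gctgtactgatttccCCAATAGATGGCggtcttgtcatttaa
Zfp52 upstream copy, chr17:21534595-21534636: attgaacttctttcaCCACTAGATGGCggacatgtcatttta
Zfp948 intron copy, chr17:21579669-21579710: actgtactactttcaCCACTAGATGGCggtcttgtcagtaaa
Copy with no site, chr17:21616525-21616566: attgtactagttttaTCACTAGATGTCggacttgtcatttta
Zfp983 upstream copy, chr17:21650086-21650127: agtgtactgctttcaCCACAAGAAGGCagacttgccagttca
Copy between Zfp983 and the next member, chr17:21679414-21679455: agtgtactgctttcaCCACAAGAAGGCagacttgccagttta

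The capitals of the first 6 copies have at most 1 mismatch to the core, and those of the last 3 have 2. The strongest promoter sites that hold a core, apart from these copies, and the 3 last exon sites that hold one follow, as 30 bases with the core in capitals. The last exon stretches are untranslated sequence, and each reads opposite to its gene.
Zfp398 promoter, chr6:47835588-47835617, plus strand: atgcgggggCCGCCAGGGGGCgcgctgtcc
Zfp786 promoter, chr6:47830575-47830604, minus strand: ctcctcctgCCCGCAGGGGGCgctgtgaga
Zfp663 promoter, chr2:165361067-165361096, minus strand: tggatgaatCCACTAGATGGCagcactaca
Zfp444 last exon, chr7:6191574-6191603, minus strand: cagccctcaCCACCAGAGGGCagcactgcc
Zfp871 last exon, chr17:32771409-32771438, plus strand: ccccatcctCCAGTAGATGGCcccagactc
Zfp78 last exon, chr7:6381625-6381654, minus strand: atccgctttCCAGAAGAGGGCatcagatcc

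Binding at the promoters of members was about as frequent as at promoters in general. A site of the authors' optimal list, the peaks that passed the irreproducible discovery rate (IDR) procedure, lay within 1000 bp of a TSS in 77 of 182 members (42.3%, 95% Wilson interval 35.4 to 49.6). Over all protein-coding genes the share was 39.8%. In the 182 Zfp genes outside clusters it was 48.9% (89 genes). Olfactory receptor genes, another large family in tandem arrays, had a promoter site in 10 of 1133. The intervals cover counting error only, and genes of a cluster are not independent of each other. The order of members and all genes turned when the limit was widened to 5000 bp, to 51.6% of members and 56.6% of all genes.

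Sites inside the gene body and in the last exon were less common in members than over all genes. A gene body site was present in 75 of 182 members (41.2%, 34.3 to 48.5), against 56.5% of all protein-coding genes, and in 103 of 182 other Zfp genes (56.6%). Promoter sites that lie inside the gene count as gene body sites too, so the 2 shares overlap. Members had a median length of 15220 bp, other Zfp genes 20311.5 bp and all genes 17378.5 bp. The upper quartiles lay farther apart, at 24669.8 bp, 34539 bp and 45440.5 bp. Per Mb of gene body there were 29.4 sites in members, 38.8 in other Zfp genes and 35.4 over all genes. A last exon site was present in 6 of 182 members (3.30%, 1.52 to 7.0), against 7.08% of all genes, although the median last exon was 2531.5 bp in members and 1133 bp over all genes. Of the other Zfp genes, 9 of 182 (4.95%) had one. In all, 95 members had a site at the promoter or in the gene body and 87 had none. This combined count was not made over all genes, so it cannot be set against them. No test of these differences was made, because genes are not replicates.

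**Figure D1:**
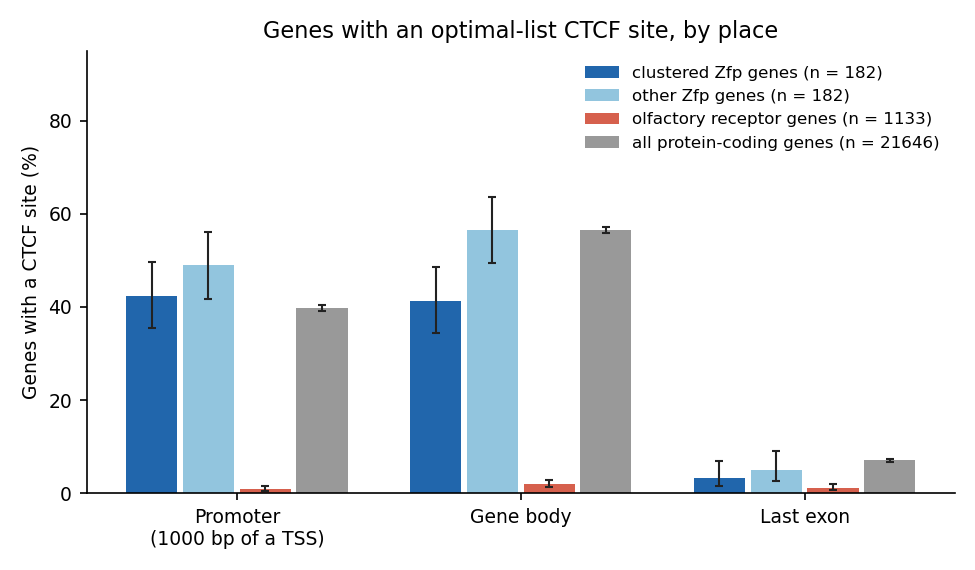
Share of genes (percent) with a CTCF site of the optimal list at the promoter, in the gene body and in the last exon, for clustered Zfp genes, other Zfp genes, olfactory receptor genes and all protein-coding genes. Bars are shares and error bars 95% Wilson intervals; members reached 42.3%, 41.2% and 3.30%.

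The clusters and the members' promoters held 196 sites of the 64732 on chromosomes 1 to 19 and X. Of these, 95 were at promoters, 41 in introns, 7 in last exons, 1 in another exon and 52 between members of a cluster. Peak signal, the enrichment value of the authors' lists, is given below for replicate 1 and then replicate 2, from each replicate's own list. A peak of both replicates lay within 100 bp of 190 of the 196 summits, and of 63131 of the 64732 over all sites. The median absolute log2 ratio between replicates was 0.23 at the 190 sites and 0.21 at all sites with both values. The IDR procedure selects for agreement between replicates, so both measures were partly set by the choice of list. Signal ranged from 6.33 to 239 in replicate 1 and from 4.71 to 237 in replicate 2.

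**Figure D2:**
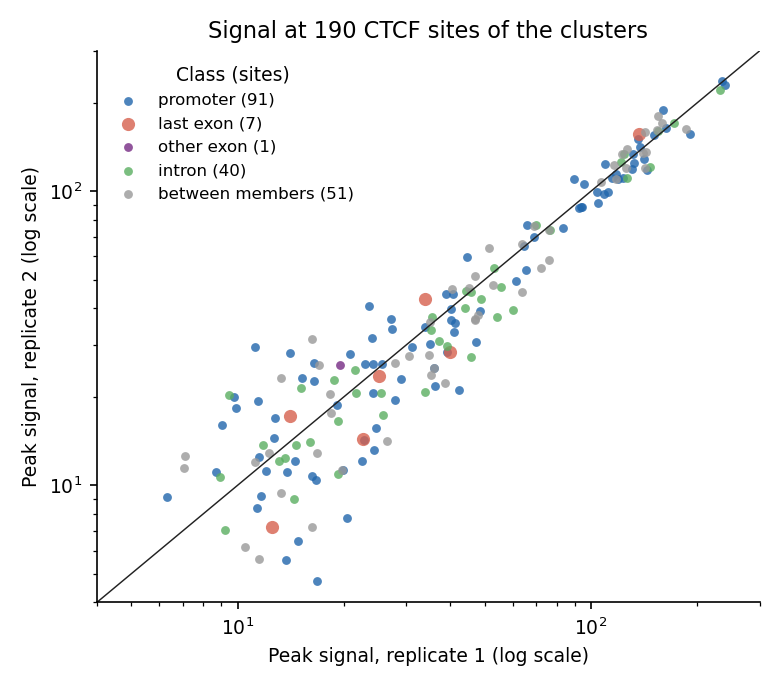
Peak signal in replicate 1 (x axis) and replicate 2 (y axis), both on log scales, at the 190 sites with a peak in both; colours give the class of site and the line marks equal signal. The scatter is widest at low signal, and 1 of the 7 last exon sites stands among the strong sites (137 and 156).

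The strongest promoter sites belonged to neighbours on chromosome 6. Zfp398, whose human counterpart ZNF398 interacts with estrogen receptor alpha, had a site of 235 and 237, 41 bp from a TSS. Zfp786, its divergently transcribed neighbour, had one of 239 and 230. Their cores had 1 mismatch each and lay on opposite strands, both in the direction of their own gene. All 5 members of this cluster had a promoter site. Zfp282, whose human counterpart binds a viral long terminal repeat, had 131 and 133, and Zfp212 had 144 and 118. Zfp956, at 27.1 and 36.6, was the weakest of the 5, and its values were below those of the other 4 in both replicates. The cluster held 10 sites in 146 kb.

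Next in rank was Zfp663 on chromosome 2, with 160 and 189 at its promoter, where the core matched without mismatch 944 bp from a TSS. An intron site of the same gene reached 172 and 170, with a core on the opposite strand. Zfp809, which silences retroviruses in embryonic cells by binding their primer binding site, had 190 and 156. The replicates differed by more at Zfp663 and Zfp809 than at Zfp398, and they ranked these 2 genes in opposite order. The remaining leaders were Zfp54 (163 and 164), Zfp52 (151 and 156) and Zfp51 (138 and 141) on chromosome 17. Zfp764 on chromosome 7 had 136 and 150. Zfp882 and Zfp617, whose annotated starts lie close together on chromosome 8, shared a site of 141 and 129.

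Members with known targets or known effects in lung were at both ends of the range. Zfp568, the repressor of a placental transcript of Igf2, had a promoter site of 131 and 119 and 3 sites in its gene body. Zfp708, which binds a retrotransposon family, had a promoter site of only 11.5 and 12.5. Zfp30, linked to neutrophil recruitment in mouse airways, had no promoter or gene body site, and the nearest site was 15212 bp from a TSS. Zfp57, Zfp932, Zfp69 and Zfp36 were not members under the rule. Across the 77 members with a promoter site, 61 had 1, 13 had 2 and 3 had 3. Among members without one, Zfp251 came closest to the limit, with a site 1103 bp from a TSS.

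Member promoter sites farther from the TSS held the core in a larger share than those close to it. Within 250 bp, 4 of 56 member sites had the core within 50 bp of the summit with at most 1 mismatch (7.14%, 2.81 to 17). Between 251 and 1000 bp, 15 of 39 had it (38.5%, 24.9 to 54.1). Of these 15, 4 were the related chromosome 17 sites of Zfp677, Zfp54, Zfp51 and Zfp52, which are not independent of each other. Over the promoters of all genes the shares were 16% and 26.3%. Over both distances, 20% of member promoter sites had the core, and 20.6% of those of all genes did. The strong sites of Zfp764 and Zfp809 had 2 mismatches and that of Zfp282 had 3. Median signal at member promoter sites was 34.6 and 31.7, at the promoter sites of all genes 31.4 and 29.2, and over all sites of the optimal list 40.8 and 37.5. In the authors' pooled signal the median at member promoter sites was 0.816 of that of all sites.

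The members' promoters with a site were richer in CpG than those without. The CpG ratio, observed over expected CpG within 500 bp of the gene start, had a median of 0.614 with a site and 0.504 without; over all genes these medians were 0.718 and 0.326. When all genes were split into equal groups by this ratio, 23 members fell in the low group, 125 in the middle and 34 in the high group. A promoter site was present in 2 of 23 (8.70%), 57 of 125 (45.6%) and 18 of 34 members (52.9%). Over all genes of these groups the shares were 12.3%, 45.8% and 61.3%. In each group the share of all genes lay within the interval of the members.

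**Figure D3:**
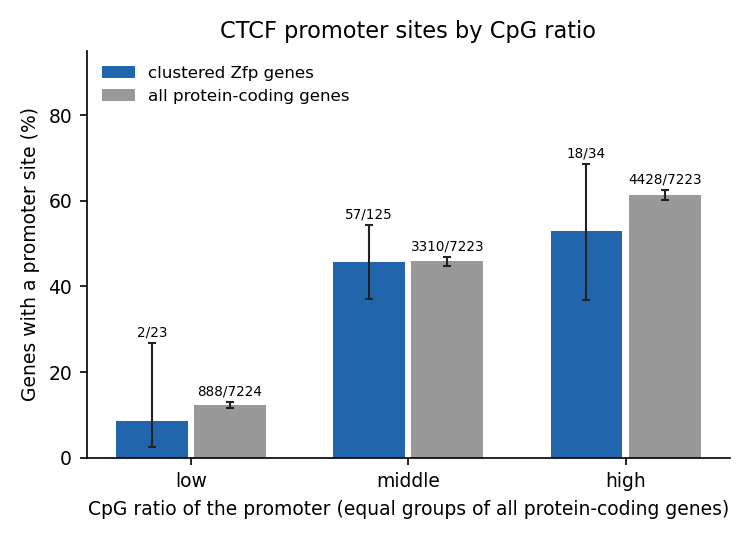
Share of genes (percent) with a promoter site by CpG ratio of the promoter, for clustered Zfp genes and all protein-coding genes, with counts above the bars and 95% Wilson intervals as error bars. The middle groups stand at 45.6% and 45.8%.

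The last exons, which carry the finger arrays, held 7 sites in 6 members. Zfp444, whose human counterpart binds the promoter of a scavenger receptor gene, had 2. The one in its untranslated part reached 137 and 156 and had the core without mismatch. The one in its coding part had 40.03 and 28.5. The coding site of Zfp524, whose human counterpart binds telomeres, had 25.2 and 23.5, and that of Zfp668, whose human counterpart stabilises p53, had 12.5 and 7.21. The other untranslated sites were in Zfp871 (34.0 and 42.9), Zfp251 (22.7 and 14.4) and Zfp78 (14.0 and 17.2). None of the 3 coding sites had a core with at most 1 mismatch, whereas 3 of the 4 untranslated ones did. Every coding site had its best match at 2 mismatches and a GC content around the summit between 67.3% and 78.2%.

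The finger arrays themselves held few sites and few cores. Over 174.4 kb of arrays there were 2 sites (11.5 per Mb) and 11 core matches (63.1 per Mb), none of them within 50 bp of a summit. A count of 0 of 11 allows a share of up to 25.9% (upper Wilson bound). In the coding part of the last exons of members the densities were 12 sites and 52.1 core matches per Mb, against 67 and 144 over the last exons of all genes. In the untranslated part they were 14.6 sites and 73.1 core matches per Mb, against 39.9 and 97.7. Of the core matches in whole last exons of members, 3 of 33 (9.09%) lay at a summit, against 18.4% over all genes. The whole last exons of members held 13.4 sites and 63.2 core matches per Mb. Those of Zfp genes outside clusters held 21.5 sites and 70.5 core matches per Mb, with 4 of 36 matches (11.1%) at a summit. At promoters the share was 19 of 58 (32.8%) in members and 29.4% over all genes.

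Some of the sites in introns and between members were as strong as the leading promoter sites. An intron of Zfp286 had the site with the third highest rank of the clusters, at 232 and 221, with no core. A site on chromosome 13 between members of the Zfp712 to Zfp759 cluster had 186 and 163. The core was present in 22 of 41 intron sites (53.7%) and 21 of 52 sites between members (40.4%, 28.2 to 53.9). Over the introns of all genes the share was 52.8%, and over all sites outside promoters and gene bodies it was 55.5%. The last 2 sets are unlike. A site between members could lie at the promoter or in the body of another coding gene, as at the promoter of Rpl8. The 55.5% leaves such sites out. Repeats marked in lower case in the reference covered more than 50% of the summit window in 15 of 41 intron sites (36.6%), against 20.6% of intron sites of all genes. Gene body sites include promoter sites that lie inside the gene. Counted so, Zfp961 had the most, 4, followed by Zfp260, Zfp568, Zfp663, Zfp672 and Zfp777 with 3 each. In Zfp260, Zfp672 and Zfp777 only 1 of the 3 was an intron site. Zfp260 is known for its part in cardiac gene expression.

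The core's strand was compared with that of the gene. At promoters, 6 of 19 cores read in the gene's direction, against 55.6% over all genes. Of the 13 that read the other way, 4 were the related chromosome 17 sites of Zfp677, Zfp54, Zfp51 and Zfp52, which are not independent of each other. In introns, 16 of 22 read in the gene's direction, against 49.4% over all genes. These 16 included all 9 intron cores at sites mostly covered by repeats marked in lower case. The 6 that read the other way were all among the 13 at other sites. They included the related chromosome 17 sites of Zfp948 and Zfp944, which are not independent of each other. In last exons 0 of 3 read in the gene's direction, against 47.2% over all genes. These counts were not tested. Of 30 neighbouring pairs of cores within clusters, 16 had the same strand, 7 faced each other and 7 pointed apart. CTCF pairs that face each other are the usual anchors of loops, but loops were not measured here.

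Cluster spans held 181 sites in 5.50 Mb, or 32.9 per Mb, against 24.6 per Mb over the chromosomes. The spans take in most of the members' promoters, which held 182 sites per Mb, against 164 at the promoters of all genes. Density without promoters was not computed, so the part of promoters in this difference was not tested. Of 646 core matches in the spans, 65 (10.1%, 7.97 to 12.6) lay at a summit, against 15.1% over the chromosomes. All members had a promoter site in 6 clusters (17 members), and no member had one in 15 clusters (34 members). Because 25 of the 53 clusters were pairs, such clusters also arise when sites fall on members independently. The counts to be met in that case were not computed, and unevenness between clusters was not tested. The largest cluster, Zfp84 to Zfp146 on chromosome 7, had 22 sites in 401 kb and a promoter site at 7 of 15 members; its strongest was that of Zfp568. Zfp180 to Zfp94 on chromosome 7 had 6 sites in 235 kb and a promoter site at 3 of 10 members, the strongest being that of Zfp61 (64.8 and 65.1). Zfp455 to Zfp459 on chromosome 13 had 6 sites in 227 kb and a promoter site at 2 of 8, with Zfp595 strongest (114 and 111).

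No site was found in 9 cluster spans, which held 22 members; at 2 of these a member had a promoter site just outside the span. Of these spans, 4 were on chromosome 4, where 5 clusters with 12 members held 1 site, at 52.8 and 47.9, between Zfp984 and Zfp933. None of these 12 genes had a promoter site. Sequence in these clusters is highly repeated: the share of 36-base words that occur once on the chromosomes ranged from 8.16% to 50.8% in the chromosome 4 clusters. Its median was 38.5% over the 9 empty clusters and 89.1% over the other 44. The Zfp58 to Zfp748 cluster on chromosome 13 was empty at 94.9%. Median CpG ratio was 0.252 in the empty clusters and 0.629 in the others. No source used here says how reads that map to several places were handled, and the part of either property in the missing sites was not tested. Around the outermost start, none of the 77 members with a promoter site had less than 50% of such words, against 16 of the 105 without.

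**Figure D4:**
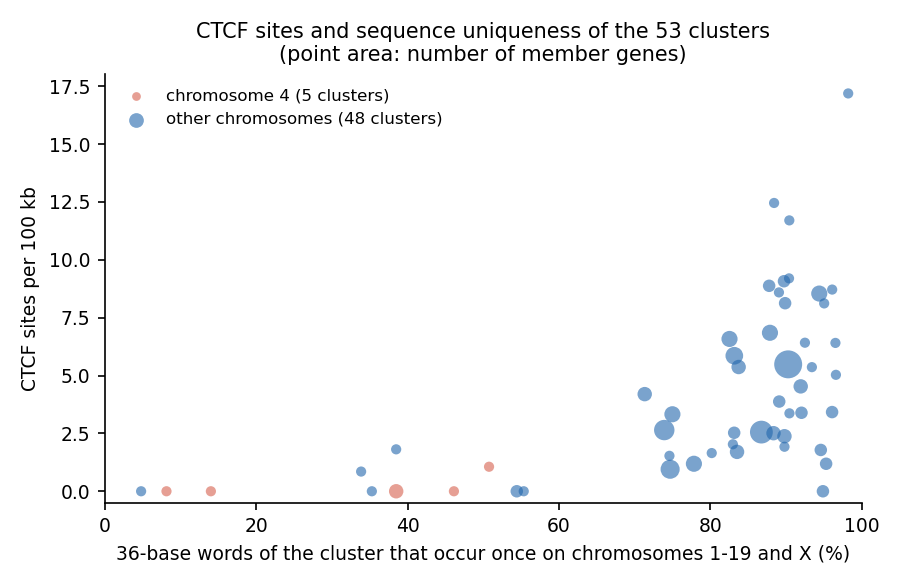
Each point is 1 of the 53 clusters; the x axis gives the percent of its 36-base words that occur once on chromosomes 1 to 19 and X, and the y axis the CTCF sites per 100 kb. The 5 clusters of chromosome 4 lie at or below 50.8%, and 4 of them have no site.

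The shared sequence on chromosome 17 linked 7 sites whose 72-base windows around an unmasked core were at least 60% identical in a chain. These were the promoter sites of Zfp677, Zfp54, Zfp51 and Zfp52, a site between members, and intron sites of Zfp948 and Zfp944. Between pairs of these 7 sites, identity ranged from 50% to 72.2%. The same rule also linked 5 other sites, which lie in 4 clusters on chromosomes 7, 15, 17 and 18. The chromosome 17 group was found after the values were seen, so no test was made. Signal was 104 and 99.2 at Zfp677, 147 and 121 in Zfp948 and 155 and 160 in Zfp944. All 6 with an assigned gene had their core opposite to it.

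The genome was searched for the consensus of the 7 windows, shortened to 42 bases. At 75% identity or more, 9 copies were found, all within the region printed above, and 8 had a site. The intron site of Zfp944, 1 of the 7 behind the consensus, lies outside that region and was not among the 9. Of these 9 copies, 6 had been used to build the consensus and so had a site by construction. Of the other 3, those near Zfp983 (65.7 and 76.5) and in the following interval (126 and 139) had a site although their cores had 2 mismatches. The remaining one, also with 2 mismatches in its core, had none in the optimal or the pooled list. At 70% identity there were 15 copies, 11 of them on chromosome 17, and 13 had a site.

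**Figure D5:**
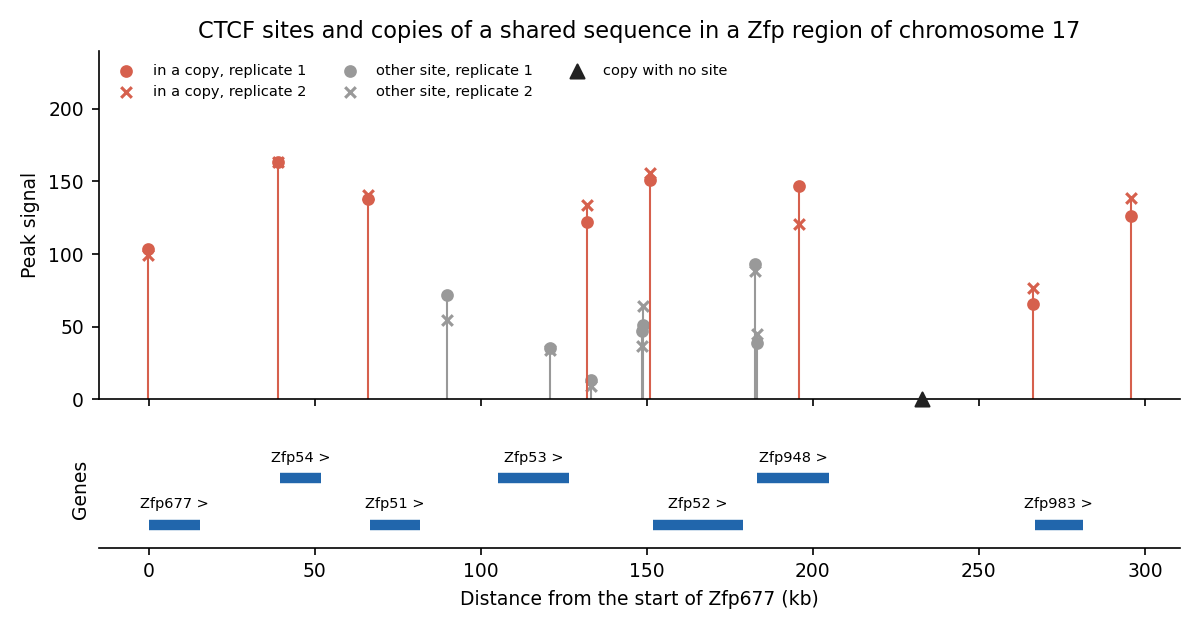
CTCF sites of 2 neighbouring clusters on chromosome 17, plotted by distance from the start of Zfp677 (kb), with peak signal in replicates 1 (circles) and 2 (crosses) on the y axis and members below, each arrow giving the direction of transcription. Sites in a copy range from 65.7 to 164; the triangle marks the copy with no site.

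The genes of the silencing machinery that KRAB zinc finger proteins recruit were taken as a list of 25. A promoter site was present in 12 of them (48%, 30.03 to 66.5), against the 39.8% of all genes. Their promoters were unlike those of all genes, with a median CpG ratio of 0.830 against 0.558 and a median of 4 TSSs against 2. Among all genes of the high CpG group, 61.3% had a promoter site. Dnmt3a, a de novo DNA methyltransferase, had the strongest at 175 and 163. Atf7ip, the partner of SETDB1, had 67.3 and 49.4, Ehmt1 36.4 and 40.7, Chd3 44.8 and 31.5, and Hdac1 40.1 and 32.4. Trim28, the corepressor itself, had 38.6 and 28.9, and Setdb1 had no promoter site.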

How the data were processed

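CTCF ChIP-seq peak lists of 2 replicates of newborn mouse lung were used as deposited. The signal of each peak is the authors' enrichment value, in column 7 of the deposited lists, and the summit offset in column 10 of the deposited lists, in bp from the peak start, is the authors' other value used. The labels give the build as mm10; no source used here names the aligner, the peak caller with its settings or the cutoff of the IDR step. The optimal list, made by the authors from both replicates, held 64732 sites on chromosomes 1 to 19 and X and 10 elsewhere, which were left out. The lists carry no read counts, so depth is unknown. No peak ended past a chromosome of the GRCm38.p6 reference.

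A site's signal in a replicate is the highest peak of that replicate within 100 bp of the summit. Sites were ranked by the mean rank over both replicates. A promoter is 1000 bp around any TSS of a protein-coding transcript; the last exon is that of the transcript with the longest coding sequence. The CTCF core, 12 bases with degenerate positions, was searched on both strands within 50 bp of the summit, allowing 1 mismatch. Shares have 95% Wilson intervals. Python 3.11.15, numpy 2.4.6, pysam 0.24.0, numba 0.67.0 and samtools 1.23.1 were used. On simulated data, 100% of 2000 planted cores and of 8769 genes with a planted promoter site were recovered.

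Named genes were the 10 members with the strongest promoter sites and up to 10 with the strongest last exon sites, the 5 with most gene body sites (6 with ties), the 3 largest clusters, members at the limits of the rule, 8 known genes where they are members and 5 cofactors. Other genes named (Zfp212, Zfp956, Zfp286, Zfp61, Zfp595, Zfp677, Zfp948, Zfp944, Zfp983, Trim28, Setdb1) and the chromosome 17 sequences were chosen after their values were seen. The members and lists were chosen with earlier results of these data known. Alternatives tried were peaks of the conservative list, only those of highest signal, either replicate alone, spaced sites and other distances, transcripts and core settings.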

Additional observations from a re-analysis of the deposited data

Results flagged for a closer look

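The authors' pooled list held peaks in the cluster spans that lay over 2000 bp from any site of the optimal and conservative lists. Of 416 such peaks, 35 had the CTCF core (8.41%, 95% Wilson interval 6.11 to 11.5), against 4 of 832 windows 1000 bp to either side (0.481%, 0.187 to 1.23). It was singled out because these peaks were used in no comparison and their share lies above that of the flanking windows. Of them, 44 were in last exons of members, 2 with the core. The core share of such peaks outside the clusters was not counted, so whether these shares are particular to the clusters cannot be told.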

How the results depend on the processing

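Of 69 alternatives to the results over all members, 56 stayed within the interval or limit of the reported value. The 13 others came mainly from keeping only the 50% of sites with the highest signal, where 20.9% of members had a promoter site (19.2% of all genes), 18.7% a gene body site (39.7%) and 0.549% a last exon site (3.97%). There the core was at 35.0% of promoter sites and at 100% of the single last exon site, cluster density was 14.7 per Mb (12.3 over the chromosomes), the median promoter signal was 0.990 of that of all sites against 0.816 with the whole list, and 6.04% of core matches in the spans were at a summit, against 10.1%. A 5000 bp limit gave 51.6% of members with a promoter site. With no mismatch the core was at 4.21% of promoter sites, and with up to 2 at 41.1% of promoter and 100% of last exon sites. For either replicate alone, the 64732 peaks of highest signal in its own list were taken, without the IDR step. This gave 46.2% to 47.8% for promoters, 39.0% to 42.3% for gene bodies and 3.30% to 3.85% for last exons. The promoter core share was then 18.0% to 20.6%, and the signal ratio 0.641 to 0.790. Single-site and copy alternatives, the signal ratio and the core matches were added after the data were seen. Of 73 single-site values, percentiles of signal within the list, 55 stayed within the replicates' spread. In 7 further cases the site was absent from the list. The spread came from the single-replicate values, which are among the 73, and percentiles fall by construction when only the strongest sites are kept. The count of 55 is therefore no measure of robustness. The cause of these changes was not tested. No paired analysis was possible because there is 1 group. Depth is not given, so a missing site may be an unbound site or one not detectable at this depth.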
